A study of Homo sapiens with 18 samples.

Results

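The human mitochondrial genome carries 37 genes, and all of them were followed here through RNA sequencing of MDA-MB-231 cells. They are every gene whose symbol starts with MT- among the 60709 genes of the count table: 13 messenger, 2 ribosomal and 22 transfer RNA genes. MDA-MB-231 is an established line of triple-negative breast cancer cells with a mesenchymal character. The study set a line that carries a hairpin against luciferase (sh-LUC, genotype WT in the labels, the control) beside a line with a hairpin against IGFBP6 (sh-IGFBP6, labelled IGFBP6 knockdown), a secreted protein that binds insulin-like growth factors. Each line received 1 of 3 treatments for 24 h: a vehicle of DMSO and ethanol (each at 0.5% by volume), 200 µM docosahexaenoic acid (DHA, an omega-3 fatty acid), or 2.5 µM erastin, an inhibitor of the cystine transporter. The DHA groups also held 0.5% DMSO and the erastin groups 0.5% ethanol. The amount of the other solvent in these groups is not given. The series title names ferroptosis, an iron-dependent death by lipid peroxidation, as the response under study. Each of the 6 groups held 3 libraries. The labels do not say whether the 3 were grown separately. The p-values thus cover only the spread between these libraries, which may be technical. Nor do they say whether either hairpin line is 1 clone or a pool.

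Mitochondrial DNA is read from both strands into long precursors that run around most of the circle. Transfer RNAs punctuate these precursors, and their excision releases the messenger and ribosomal RNAs between them. The messengers encode core subunits of respiratory complexes I, III and IV and of ATP synthase (complex V), and all other subunits of these complexes come from nuclear genes. Because the members leave the same precursors, their steady levels depend on transcription, on processing and on how long each RNA lasts. Respiratory complexes are a main source of reactive oxygen in cells, which is why mitochondria are often discussed beside ferroptosis.

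In 5 places neighbouring members share bases, which limits how well they can be told apart. The 2 longest shared stretches are shown; the others are 3 bases of MT-TI and MT-TQ, 1 base of MT-TC and MT-TY and 1 base of MT-ATP6 and MT-CO3. All sequences are from GENCODE release 29 on GRCh38, written 5′ to 3′ on the strand of the gene. Capitals mark the bases that belong to both genes. MT-ATP8 (chrM:8366-8572) and MT-ATP6 (chrM:8527-9207) lie on 1 shared messenger and overlap by 46 bases, and MT-ND4L (chrM:10470-10766) and MT-ND4 (chrM:10760-12137) overlap by 7 bases. The stretches shown are chrM:8507-8592 and chrM:10740-10786, both on the plus strand.
MT-ATP8 to MT-ATP6: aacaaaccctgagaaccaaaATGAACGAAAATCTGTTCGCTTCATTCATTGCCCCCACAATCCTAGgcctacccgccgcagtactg
MT-ND4L to MT-ND4: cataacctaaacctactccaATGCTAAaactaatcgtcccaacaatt
In each, the shared stretch opens with the ATG start codon of the downstream gene. MT-TP, the transfer RNA for proline, lies at chrM:15956-16023 on the minus strand, and it is shown because it was the only transfer RNA counted in every library. No base is in capitals in it.
MT-TP: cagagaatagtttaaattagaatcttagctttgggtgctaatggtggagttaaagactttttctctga

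Of the 37 members, 16 had counts in all 18 libraries and passed the filter on low counts: the 13 messengers, both ribosomal RNAs and MT-TP. Transfer RNA genes are 59 to 75 bases long, and 17 of the 22 had no count in any library. MT-TF had 40 counts over all libraries, MT-TY 7, MT-TC 6 and MT-TL1 2, against 1832 for MT-TP. These members were not tested. MT-ND6, MT-TP and 7 other transfer RNA genes lie on the minus strand, opposite the other 28 members. Whether the counting used strand is not given in the sources used here. Reads of MT-ND6 and MT-TP cannot be told apart from antisense RNA of the opposite precursor.

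The libraries held 2708143 to 7977429 counts, except for sh-IGFBP6 erastin replicate 3, which held 609936. In that library MT-RNR1 and MT-RNR2 took 54.4% of all counts, against 0.0349% to 0.504% in the other 17. Its counts in nuclear genes, to which all levels are scaled, were 232767, against 2631522 to 7776713 in the other 17. Ribosomal RNA was removed during library preparation, per the labels. The part of that step in the ribosomal values was not tested. The model shares 1 estimate of each gene's spread over all groups, so counts of members called are given with all 18 libraries and again with the 17 that remain without that one. Single changes come from all 18 unless 17 is named. In the 6 comparisons that do not contain that library, the log2 changes of the members differed by at most 0.026 between both fits, while their SE and p differed more. IGFBP6 stood at 21.3 ± 2.07 (SD, n = 3) in untreated sh-LUC and 1.51 ± 0.876 (SD, n = 3) in untreated sh-IGFBP6 cells, a log2 difference of -3.74 (SE 0.27, edgeR adjusted p = 6.25e-26). Of the cell markers, the 6 mesenchymal genes summed to 3589 to 5273. The 9 luminal genes summed to 521 to 1597, the 6 fibroblast genes to 86.0 at most, the 5 endothelial genes to 11.04 at most and the 6 leukocyte genes to 5.81 at most.

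All levels are CPM on nuclear counts: counts of the gene scaled to the library's counts in genes outside the mitochondrial genome, with TMM factors from those genes. A change is thus one of mitochondrial against nuclear RNA, and a gain of the former cannot be told apart from a loss of the latter. In such bulk samples fewer cells and less RNA per cell cannot be told apart either. Levels of different genes were compared per kilobase of gene length. Ratios and shares of counts, used to set libraries side by side, are not scaled to length and give no order of the genes.

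Per kilobase, the cytochrome c oxidase messengers led the members in untreated sh-LUC cells. MT-RNR2, MT-ND4L, MT-RNR1 and MT-TP stood lowest there. MT-CO3, MT-CO1 and MT-CO2, the core subunits of complex IV, stood at 5544 ± 470, 5484 ± 491 and 5438 ± 482 per kilobase (SD, n = 3). These 3 did not differ beyond their spread. MT-ND4, of complex I, and MT-ATP6, of ATP synthase, followed at 3296 ± 378 and 3128 ± 289 per kilobase, again within their spread of each other. MT-ND1 stood at 1528 ± 140 and MT-CYB, the single mitochondrial subunit of complex III, at 1229 ± 33.8 per kilobase. MT-ND5 (1163 ± 98.5), MT-ND2 (1074 ± 153), MT-ATP8 (1006 ± 214), MT-ND6 (925 ± 162) and MT-ND3 (856 ± 132) overlapped in part with their neighbours in this order. MT-RNR2 (738 ± 87.8), MT-ND4L (735 ± 123), MT-RNR1 (446 ± 67.2) and MT-TP (214 ± 20.2) came last. MT-ATP8 and MT-ATP6 lie on a shared messenger, yet stood at 1006 and 3128, so this order ranks counts per gene and not RNA molecules. MT-ATP8 is 207 bases long with 46 shared, MT-ND4L 297 with 7 shared with MT-ND4, and MT-TP 68. The part of gene length and of shared bases in these values was not tested. The ribosomal values are those left after depletion and do not give the abundance of these RNAs in the cell.

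**Figure D1:**
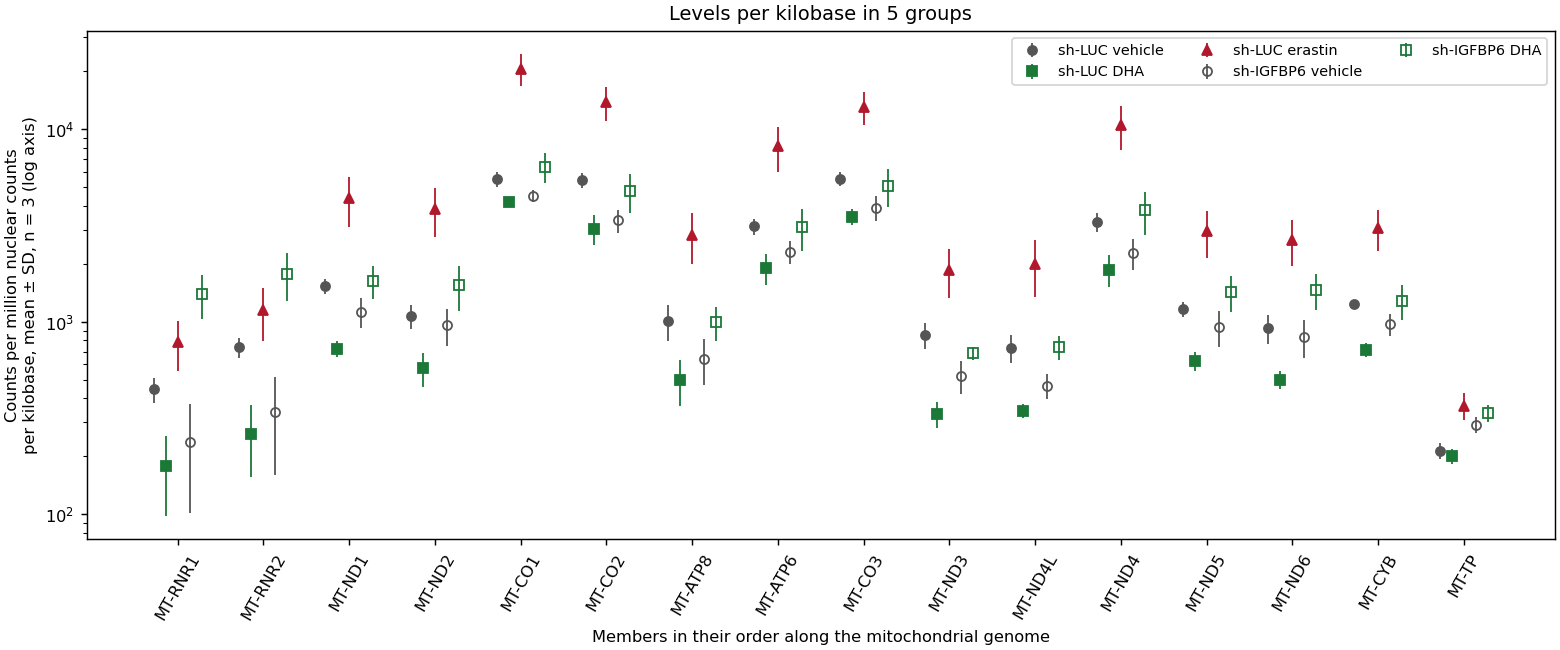
Level of each of the 16 counted members per kilobase of gene length (y axis, CPM on nuclear counts, log scale) in their order along the mitochondrial genome (x axis). Points are means of 3 libraries and bars are SD; the sh-IGFBP6 erastin group is left out because 1 of its libraries stands apart. MT-CO1 reached 20638 per kilobase under erastin in sh-LUC, against 5484 under vehicle.

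Erastin raised the mitochondrial messengers of sh-LUC cells. Their summed level was 28331, 33371 and 29774 in the 3 vehicle libraries and 107844, 99099 and 68583 in the 3 erastin libraries. Every erastin library stood above every vehicle library, and the mean of 91842 ± 20612 was 3.01 times the vehicle mean of 30492 ± 2596 (SD, n = 3). With all 18 libraries, 12 of 16 members rose and none fell (edgeR's quasi-likelihood test, adjusted over all genes), where 21.3% of the 15320 genes tested rose and 24.3% fell. Without sh-IGFBP6 erastin replicate 3, 14 of 16 rose, where 21.6% of 15845 genes did. The median log2 change of the 13 messengers was 1.46, beside -0.01 for all genes.

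MT-CO1, the catalytic subunit of complex IV, had the largest log2 change of the 13 messengers. Its lead over MT-ND2 (1.85, SE 0.60) lay within their SE. The level of MT-CO1 was 7586, 8964 and 8820 under vehicle and 37011, 33158 and 25303 under erastin. The groups were far apart, with a log2 change of 1.91 (SE 0.33, edgeR adjusted p = 0.000336). The other complex IV messengers rose less, MT-CO2 by a log2 change of 1.35 (SE 0.41) and MT-CO3 by 1.24 (SE 0.40). Of the 7 complex I messengers, 5 rose, with log2 changes from 1.34 for MT-ND5 to 1.85 for MT-ND2. MT-ND3 (1.11, adjusted p = 0.0636) and MT-ND4L (1.46, adjusted p = 0.0939) missed the threshold with 18 libraries and passed it with 17 (adjusted p = 0.00371 and 0.000615). MT-CYB rose by 1.32 (SE 0.47), MT-ATP8 by 1.495 (SE 0.57) and MT-ATP6 by 1.38 (SE 0.49).

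The ribosomal RNAs did not pass the test under erastin in sh-LUC in either fit. MT-RNR1, of the small mitochondrial ribosomal subunit, stood at 353, 448 and 475 under vehicle and 799, 937 and 507 under erastin, without overlap (log2 change 0.81, SE 1.54, adjusted p = 0.709; with 17 libraries SE 0.39, adjusted p = 0.114). MT-RNR2, of the large subunit, stood at 994, 1248 and 1211 under vehicle and 1866, 2276 and 1208 under erastin, so its groups overlapped (adjusted p = 0.770, or 0.201 with 17). MT-TP rose from 13.6, 16.1 and 13.9 to 25.3, 28.7 and 20.8 (log2 change 0.78, SE 0.26, adjusted p = 0.0234). The count of 12 changed with the libraries kept. It was 2 without vehicle replicate 1 or 3 or erastin replicate 1. Without vehicle replicate 2 it was 7, and without erastin replicate 2 it was 6. These counts stand without the share of all genes, so they do not tell a loss among members from one over all genes. Of the listed structural and long noncoding RNAs that describe RNA composition, 4 of 17 were tested, and 3 of these rose, RN7SL1, the signal recognition particle RNA, by 1.01 (adjusted p = 1.37e-22). Their part in the rise of the members was not tested.

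**Figure D2:**
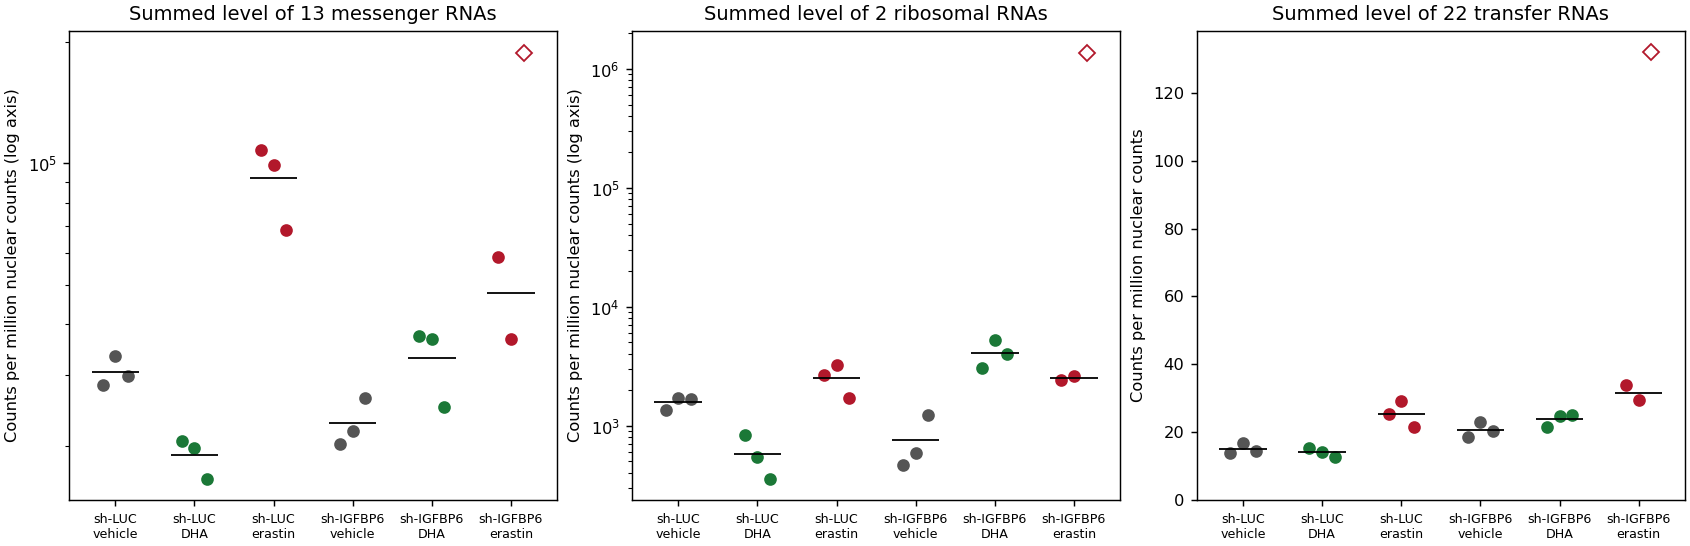
Summed level of the 13 messenger, 2 ribosomal and 22 transfer RNAs in each of the 18 libraries (y axes, CPM on nuclear counts, log scale in the first 2 panels), by hairpin line and treatment (x axes). Circles are libraries, the open diamond is sh-IGFBP6 erastin replicate 3, and horizontal lines are group means without it. The sh-LUC erastin libraries lie between 68583 and 107844 for messengers, and the diamond lies at 1370013 for ribosomal RNAs.

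Under DHA the mitochondrial messengers of sh-LUC cells lay below vehicle. The summed messenger level was 20549, 19837 and 16621 in the 3 DHA libraries, all below the vehicle libraries, and the mean was 19002 ± 2092 (SD, n = 3), 0.623 of the vehicle mean. All 13 messengers had negative log2 changes, with a median of -0.89 beside 0.00271 for all genes, and in all 13 the DHA libraries lay below the vehicle libraries without overlap, as they did in 15.7% of all genes tested. With all 18 libraries, 0 of 16 members passed the edgeR test and 1 had an unadjusted p below 0.05, where 6.89% of genes rose and 9.73% fell. DESeq2's Wald test called 0 as well. Without sh-IGFBP6 erastin replicate 3, which is in neither group, 8 of 16 fell, where 9.32% of genes fell. At an unadjusted p below 0.05 the count of members was 14. For such unadjusted counts, here and below, no share of all genes was taken, so they have no baseline. When only the libraries of these groups were fitted, 9 fell, where 10.2% of genes did. Leaving out sh-IGFBP6 erastin replicate 2 instead gave 1, a count without its share of all genes.

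The members that fell with 17 libraries were MT-ND1, MT-ND3, MT-ND4L, MT-ND5, MT-CYB, MT-CO2 and both ribosomal RNAs. MT-ND3, a small complex I subunit, stood at 288, 345 and 256 under vehicle and 130, 120 and 95.4 under DHA. Its log2 change was -1.36 in both fits (adjusted p = 0.0865 with 18 libraries and 0.00620 with 17). MT-RNR2 stood at 587, 381 and 258 under DHA, below all vehicle libraries (log2 change -1.496, SE 0.39 with 17, adjusted p = 0.0222). MT-CO1 had the smallest change of the messengers, from 7586, 8964 and 8820 to 6698, 6615 and 6117 (log2 change -0.38, SE 0.17 with 17, adjusted p = 0.183). MT-TP stood at 14.8, 13.7 and 12.4 under DHA, within the vehicle range in part, with a log2 change of -0.10 (SE 0.29). Of the 4 tested RNAs of the composition list, 3 fell, RN7SL1 by 0.23 (adjusted p = 0.0249), and their part in these values was not tested.

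In sh-IGFBP6 cells erastin raised every counted member, and the size of the rise depended on 1 library. The summed messenger level was 20284, 21845 and 26305 under vehicle and 58676, 36874 and 187865 under erastin. The last of these is replicate 3. The other pair averaged 47775, which is 2.09 times the vehicle mean of 22811 ± 3125 (SD, n = 3), and with replicate 3 the ratio was 4.14. All 16 members rose with 18 libraries, where 14.5% of genes rose and 14.2% fell, and all 16 rose with 17, where 13.9% did. The median log2 change of the messengers was 2.22 with 18 and 1.30 with 17, beside 0.00384 and 0 for all genes. When only the libraries of these groups were fitted, replicate 3 included, 0 of 16 were called, where 14.9% of genes rose, and 5 members had an unadjusted p below 0.05.

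With 17 libraries, the largest log2 changes among the messengers were those of MT-ATP8 at 1.78 (SE 0.37, edgeR adjusted p = 0.00335) and MT-ND4L at 1.63 (SE 0.30, adjusted p = 0.00135), an ATP synthase and a complex I subunit. Those of MT-CO3 (0.77, SE 0.24, adjusted p = 0.0321) and MT-CO1 (0.70, SE 0.19, adjusted p = 0.0166) were the smallest. MT-CO1 stood at 6652, 6732 and 7514 under vehicle and at 13377, 9306 and 29688 under erastin. MT-ND4, a complex I subunit of the membrane arm, went from 2723, 2918 and 3808 to 10460, 6567 and 35166, and its log2 change was 2.46 with 18 libraries and 1.43 with 17. Both genes stood above vehicle in every erastin library.

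The ribosomal RNAs depended on replicate 3 more than any other member. MT-RNR1 stood at 127, 180 and 374 under vehicle and at 702, 766 and 433305 under erastin. MT-RNR2 stood at 335, 402 and 843, and at 1729, 1846 and 936709. Their log2 changes were 9.31 (SE 2.18) and 9.22 (SE 2.14) with replicate 3, and 1.68 (SE 0.44, adjusted p = 0.0135) and 1.76 (SE 0.42, adjusted p = 0.00834) without it. The ratio of MT-RNR2 to MT-RNR1 counts was 2.00 to 2.82 over all 18 libraries, so both moved together in replicate 3. Ribosomal counts there were 7.29 times the messenger counts, against 0.0215 to 0.159 in the other 17. MT-TP stood at 18.7, 21.95 and 19.0 under vehicle and 33.0, 28.9 and 124 under erastin (log2 change 0.64 with 17, SE 0.14, adjusted p = 0.000108). The value of 124, of replicate 3, rests on 30 counts. Of the composition list, 3 RNAs rose and 1 fell, RN7SL1 rising by 0.78 (adjusted p = 1.21e-15).

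Under DHA in sh-IGFBP6 cells the ribosomal RNAs stood above vehicle, a rise called with 17 libraries and not with 18. No messenger passed the test in either of these 2 fits. The summed messenger level was 37396, 36725 and 24983 under DHA, a mean of 33035 ± 6981 (SD, n = 3) and 1.45 times vehicle, and its lowest library lay inside the vehicle range. All 13 messengers had positive log2 changes, from 0.38 for MT-CO3 to 0.80 for MT-ND6, with a median of 0.54 beside 0.00419 for all genes. In 3 of the 13 the DHA libraries lay above vehicle without overlap, as they did in 22.6% of all genes tested. With all 18 libraries, 0 of 16 passed the edgeR test and 0 had an unadjusted p below 0.05, where 17.4% of genes rose and 16.7% fell. DESeq2 called 0. Without sh-IGFBP6 erastin replicate 3, 2 of 16 rose, where 15.8% of genes rose, and these were MT-RNR1 and MT-RNR2.

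MT-RNR1 went from 127, 180 and 374 under vehicle to 992, 1673 and 1327 under DHA, and MT-RNR2 from 335, 402 and 843 to 2056, 3588 and 2651. Neither overlapped. Their log2 changes were 2.53 (SE 0.41, adjusted p = 0.000436) and 2.38 (SE 0.40, adjusted p = 0.000569) with 17 libraries, and 2.55 and 2.39 with adjusted p of 0.267 and 0.284 with 18. In sh-LUC the same treatment went with lower values of both, as given above. MT-CO1 (0.48) and MT-ND6 (0.78), each with an adjusted p of 0.0537 with 17 libraries, lay nearest to the threshold among the messengers. Of the composition list, 3 of 4 tested RNAs rose. RN7SL1 rose by 0.29 (adjusted p = 0.00111), and the nuclear RNAs MALAT1 and NEAT1 by 1.27 and 2.50 (adjusted p = 8.08e-32 and 1.29e-09). Their part in the ribosomal values was not tested.

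**Figure D3:**
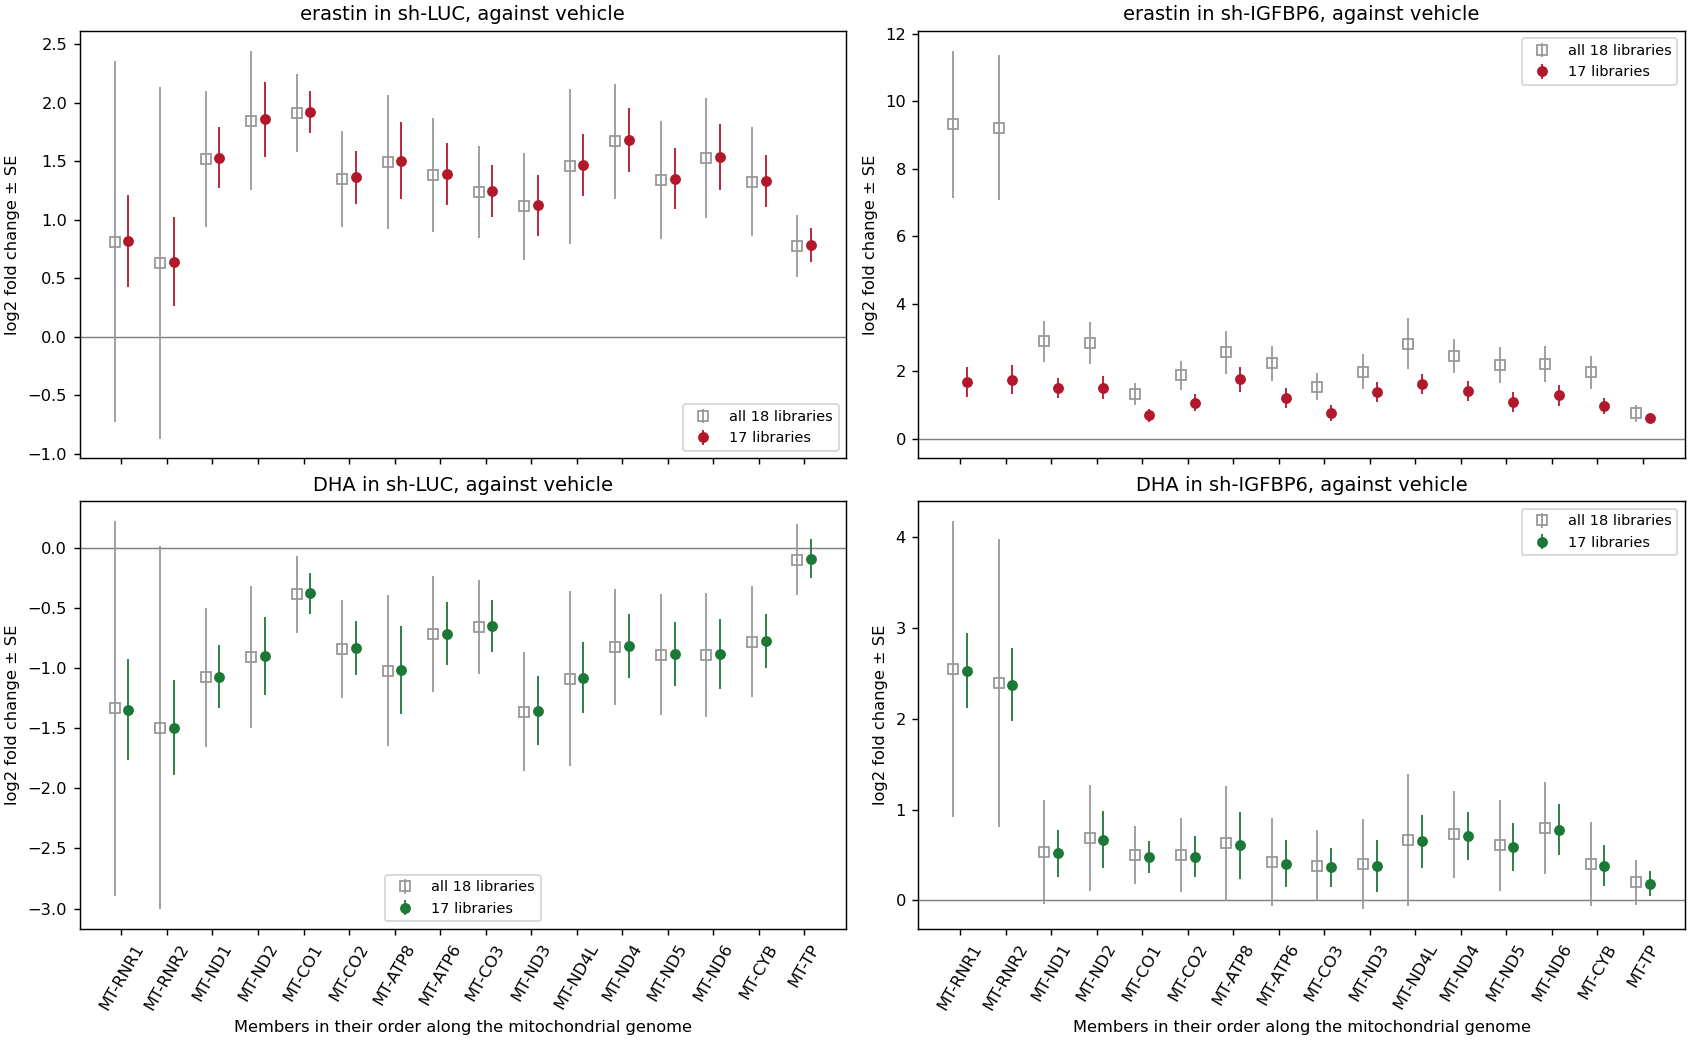
log2 fold change against vehicle with its SE (y axes, with a scale of its own in each panel) for the 16 counted members in their order along the mitochondrial genome (x axes), for erastin (top) and DHA (bottom) in sh-LUC (left) and sh-IGFBP6 (right). Open squares come from the model with all 18 libraries and filled circles from the model without sh-IGFBP6 erastin replicate 3. Changes in the other groups kept nearly the same value, MT-CO1 under erastin in sh-LUC being 1.91 and 1.92, while their SE fell from 0.33 to 0.18.

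The response to DHA was compared between the lines through the interaction term, which asks whether the log2 change differs. With all 18 libraries, 0 of 16 members passed the edgeR test and 4 had an unadjusted p below 0.05, where 20.4% of genes passed in either direction. DESeq2 called 0. Without sh-IGFBP6 erastin replicate 3, 14 of 16 had a higher change in sh-IGFBP6, where 9.46% of genes did, and when only the 4 groups of this comparison were fitted 15 did, where 11.1% of genes did. All 13 messengers had a positive difference in both fits, with a median of 1.55 with 18 libraries and 1.53 with 17. With 17 libraries the ribosomal RNAs differed most, by 3.88 for MT-RNR1 (SE 0.59, adjusted p = 0.000456) and 3.87 for MT-RNR2 (SE 0.56, adjusted p = 0.000329). MT-ND3 followed at 1.74 (SE 0.41, adjusted p = 0.00973) and MT-CO1 had the smallest difference among the messengers at 0.86 (SE 0.24, adjusted p = 0.0283). MT-ATP6 (1.12, adjusted p = 0.0556) and MT-TP (0.27, adjusted p = 0.412) were not called.

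For erastin the lines differed in 1 member, MT-CO1, once replicate 3 was left out, a share below that of all genes. That fit holds only 2 sh-IGFBP6 erastin libraries. With all 18 libraries, 2 of 16 members had a higher change in sh-IGFBP6, where 14.0% of genes did, and these were MT-RNR1 (8.50, SE 2.47) and MT-RNR2 (8.59, SE 2.43). Both calls ended without replicate 3 (0.86 and 1.12, adjusted p = 0.345 and 0.194). With 17 libraries 1 of 16 was called, where 12.1% of genes were lower: the change of MT-CO1 was smaller in sh-IGFBP6 by a log2 difference of -1.22 (SE 0.26, adjusted p = 0.00458), which with 18 libraries was -0.59 (SE 0.45, adjusted p = 0.396). The other 12 messengers had differences between -0.48 and 0.27 with 17 libraries. The count of 2 was also 0 without vehicle replicate 1 or 2 of sh-IGFBP6 or erastin replicate 1 or 3 of sh-LUC. Without erastin replicate 2 of sh-LUC it was 1. These counts stand without the share of all genes, so they do not tell a loss among members from one over all genes.

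The make-up of the messenger pool was read from each messenger's share of the 13. MT-CO1 took 26.8%, 26.9% and 29.6% of the 13 messengers' counts in the vehicle libraries of sh-LUC, and 34.3%, 33.5% and 36.9% under erastin. In sh-IGFBP6 it took 32.8%, 30.8% and 28.6% under vehicle and 22.8%, 25.2% and 15.8% under erastin. The share was thus higher in all 3 erastin libraries of sh-LUC and lower in all 3 of sh-IGFBP6, without overlap with vehicle in either line. Under DHA it was 32.6%, 33.4% and 36.8% in sh-LUC, above vehicle, and 28.6%, 29.8% and 31.4% in sh-IGFBP6, inside the vehicle range. No test was made on these shares, which sum to 100 and so move against each other.

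MT-CO3 took a smaller share under erastin in both lines, 11.2% ± 0.485 against 14.3% ± 0.298 under vehicle in sh-LUC (SD, n = 3) and 10.9%, 11.1% and 8.92% against 13.4% ± 0.294 in sh-IGFBP6. MT-ND1, a complex I core subunit, took 6.68%, 6.01% and 9.84% under erastin in sh-IGFBP6, against 4.69% ± 0.209 under vehicle. In sh-LUC its share overlapped vehicle under erastin and was 3.65% ± 0.145 under DHA, below the 4.79% ± 0.210 of vehicle. MT-ND2 took 6.47%, 5.31% and 8.71% under erastin in sh-IGFBP6, above all vehicle libraries, whose mean was 4.35% ± 0.389. In sh-LUC it took 4.56%, 4.48% and 3.96% under erastin, also above the 3.58%, 3.90% and 3.49% of vehicle. Of the sh-IGFBP6 erastin libraries, replicate 3 lay furthest from vehicle in all 4 genes.

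**Figure D4:**
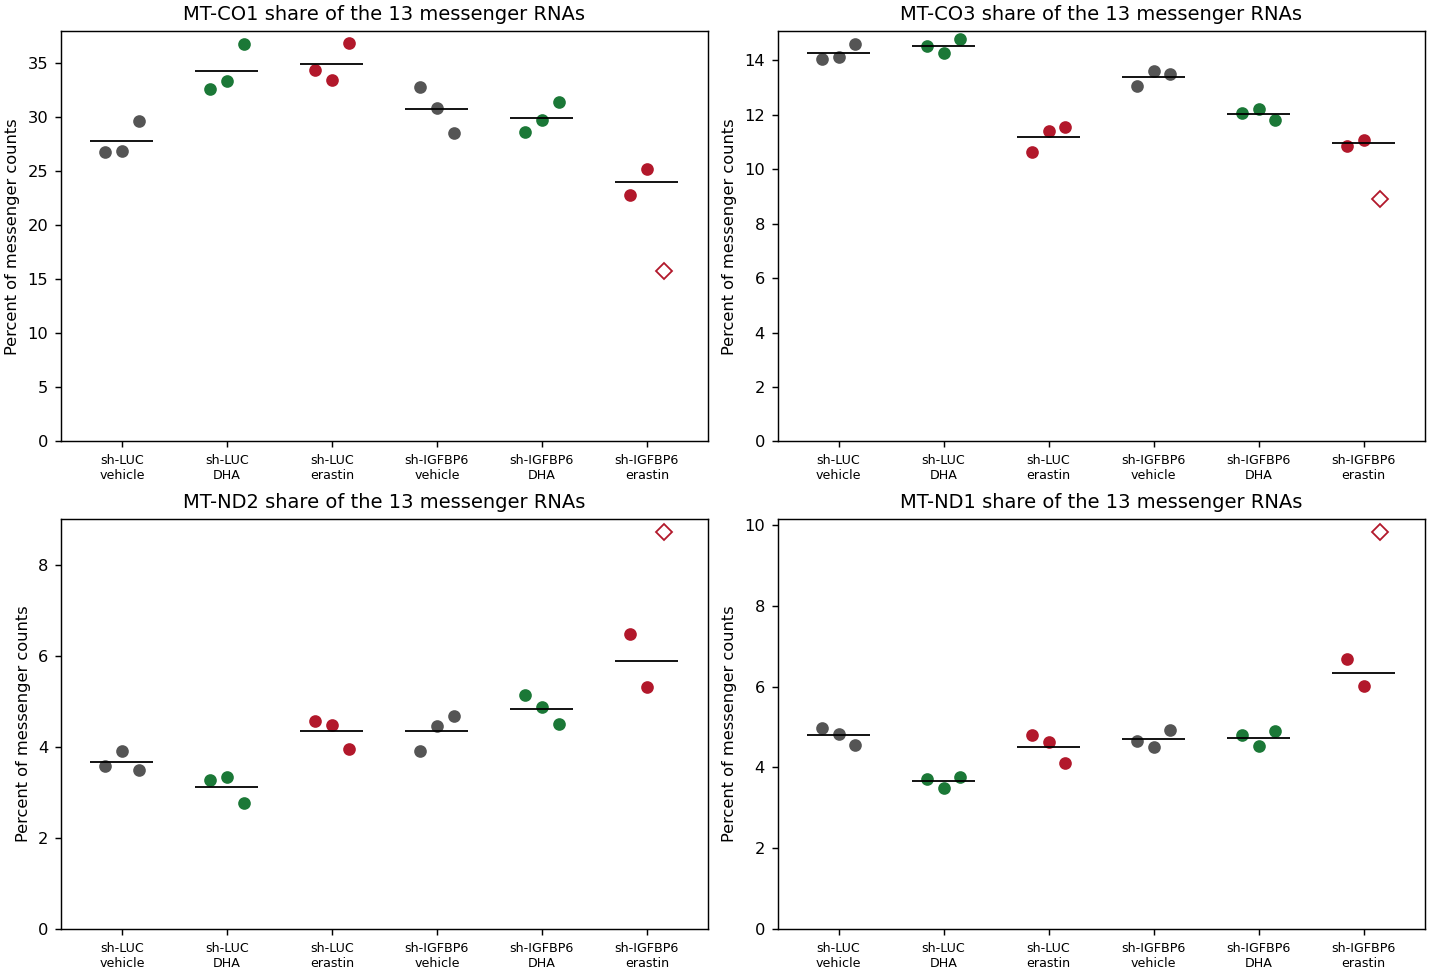
Share of MT-CO1, MT-CO3, MT-ND2 and MT-ND1 in the counts of the 13 mitochondrial messengers (y axes, percent) in each of the 18 libraries, by hairpin line and treatment (x axes). Circles are libraries, the open diamond is sh-IGFBP6 erastin replicate 3, and lines are group means without it. The MT-CO1 share lies at 33.5% to 36.9% under erastin in sh-LUC and at 15.8% to 25.2% in sh-IGFBP6.

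Without treatment, the messengers stood lower in sh-IGFBP6 than in sh-LUC, and 1 of 13 passed the test with 17 libraries. The summed level averaged 22811 ± 3125 in sh-IGFBP6 and 30492 ± 2596 in sh-LUC (SD, n = 3), and every sh-IGFBP6 library stood below every sh-LUC library. All 13 messengers had negative differences, with a median log2 value of -0.44 beside -0.00545 for all genes, and in 10 of 13 the groups did not overlap, where 33.8% of all genes tested lay lower without overlap. With all 18 libraries 0 of 16 members passed the edgeR test and 0 had an unadjusted p below 0.05, where 31.8% of genes were higher and 32.5% lower in sh-IGFBP6. DESeq2 called 0. Without sh-IGFBP6 erastin replicate 3, 3 of 16 were called, where 32.0% of genes were higher and 31.3% lower. MT-TP was higher, from 13.6, 16.1 and 13.9 in sh-LUC to 18.7, 21.95 and 19.0 (log2 difference 0.48, SE 0.16, adjusted p = 0.00756). MT-CO2 (-0.68, SE 0.23, adjusted p = 0.0205) and MT-RNR2 (-1.11, SE 0.40, adjusted p = 0.0273) were lower. When only these groups were fitted, 1 of 16 was higher and 7 were lower, where 34.9% of genes were higher and 35.0% lower.

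DHA and erastin were also set against each other, each comparison sharing its treated libraries with those above. In sh-LUC, 14 of 16 members were lower under DHA with all 18 libraries, where 24.3% of genes were, and 16 of 16 with 17 libraries, where 24.3% were. The 13 messengers did not overlap between these groups, where 27.3% of all genes tested lay lower under DHA without overlap. Their log2 differences ran from -2.76 for MT-ND2 to -1.89 for MT-CO3. MT-CO1 stood at 37011, 33158 and 25303 under erastin and at 6698, 6615 and 6117 under DHA (-2.30, SE 0.33, adjusted p = 6.89e-05). In sh-IGFBP6, 13 of 16 were lower under DHA with all 18 libraries, where 12.6% of genes were, and 5 of 16 with 17, where 12.9% were. Those 5 were MT-ND1, MT-ATP8, MT-ND3, MT-ND4L and MT-TP. MT-RNR1 and MT-RNR2 turned direction, from -6.76 and -6.82 with replicate 3 to 0.85 and 0.62 without it (adjusted p = 0.181 and 0.340). The count of 13 was 4, 3 and 1 without DHA replicate 1, 2 and 3 of sh-IGFBP6. These counts stand without the share of all genes, so they do not tell a loss among members from one over all genes. When only these groups were fitted the count was 0, where 13.2% of genes were lower and no member had an unadjusted p below 0.05.

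The respiratory complexes also take subunits from nuclear genes, and 74 of these were tested. For these and the further lists, counts are from all 18 libraries, and with 17 no count in either direction differed by more than 2. They are to be read against all genes, of which 21.3% rose and 24.3% fell under erastin in sh-LUC, 14.5% and 14.2% under erastin in sh-IGFBP6, 6.89% and 9.73% under DHA in sh-LUC, and 17.4% and 16.7% under DHA in sh-IGFBP6. Between the untreated lines 31.8% were higher and 32.5% lower. Under erastin in sh-LUC, 37 of the 74 fell and 1 rose, with a median log2 change of -0.24 and a range of -0.80 to 0.36, while the mitochondrial messengers rose. The strongest by p were ATP5F1A, the alpha subunit of ATP synthase (-0.44, adjusted p = 1.49e-10), COX4I1 (-0.50, adjusted p = 2.90e-10) and COX8A (-0.56, adjusted p = 8.88e-10) of complex IV, and NDUFS5 of complex I (-0.70, adjusted p = 1.19e-09). By complex, 18 of 37 fell in complex I, 6 of 9 in complex III, 6 of 11 in complex IV and 7 of 17 in complex V. Under erastin in sh-IGFBP6, 22 of 74 fell and 1 rose (median -0.13), with CYC1, cytochrome c1 of complex III, at -0.63 (adjusted p = 3.67e-12). DHA lowered 11 and raised 3 in sh-LUC (median -0.09), and lowered 13 and raised 0 in sh-IGFBP6 (median -0.07). Between the untreated lines 25 of 74 were higher and 18 lower (median 0.07), a share near that of all genes for higher and below it for lower, with UQCRH of complex III at 1.52 (adjusted p = 1.17e-31).

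**Figure D5:**
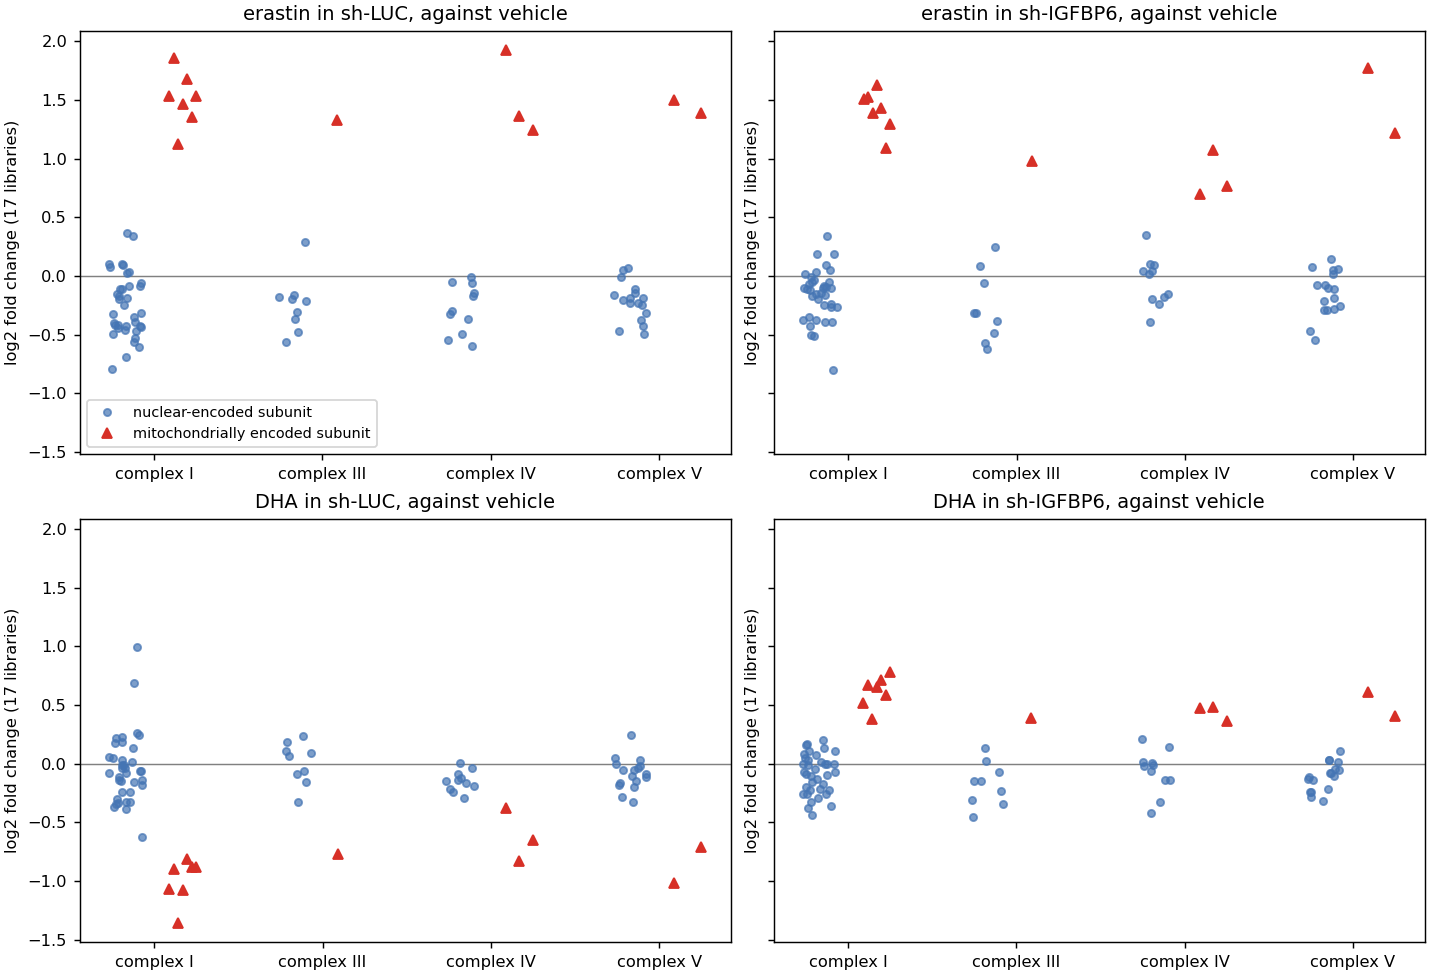
log2 fold change against vehicle (y axes, 17 libraries, without sh-IGFBP6 erastin replicate 3) of the 74 nuclear-encoded subunits (circles) and the 13 mitochondrially encoded subunits (triangles) of complexes I, III, IV and V (x axes), for each treatment in each line. Under erastin the triangles lie above the circles in both lines, from 1.13 to 1.92 in sh-LUC and from 0.70 to 1.78 in sh-IGFBP6.

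Of 26 genes that transcribe, copy or maintain mitochondrial DNA, 9 rose and 3 fell under erastin in sh-LUC (median 0.10), 4 rose and 0 fell under DHA (0.12), 4 rose and 4 fell under erastin in sh-IGFBP6 (-0.08), and 6 rose and 4 fell under DHA there (0.04). TWNK, the replicative helicase, rose under erastin by 1.08 in sh-LUC (adjusted p = 3.90e-14) and by 0.48 in sh-IGFBP6 (adjusted p = 8.13e-07), and by 0.42 under DHA in sh-IGFBP6 (adjusted p = 3.12e-06). TFB2M, a transcription initiation factor, rose by 0.78 (adjusted p = 9.82e-07), 0.51 (adjusted p = 0.000269) and 0.51 (adjusted p = 0.000105) in the same order. POLRMT, the mitochondrial RNA polymerase, was not called under erastin in sh-LUC (-0.14, adjusted p = 0.168) or sh-IGFBP6 (-0.19, adjusted p = 0.0654). TFAM, which packages the DNA and starts transcription, rose by 0.23 under erastin in sh-LUC (adjusted p = 0.00836) and was at -0.10 in sh-IGFBP6 (adjusted p = 0.345).

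Others of this list past 1.5-fold under erastin in sh-LUC were PPRC1 (0.89) and LONP1 (0.83), a coactivator and a matrix protease, which rose, and PPARGC1A (-0.65), a coactivator of mitochondrial biogenesis, which fell. Under DHA in sh-LUC these were PPARGC1B (0.69) and LONP1 (0.64). PPARGC1B fell by 0.64 under erastin in sh-IGFBP6, and PPARGC1A and PRIMPOL fell by 0.96 and 0.61 under DHA there. Between the untreated lines, 15 of the 26 were higher and 2 lower in sh-IGFBP6 (median 0.33). The higher ones past 1.5-fold were TWNK (2.01), PPARGC1B (1.43), RNASEH1 (1.25), ESRRA (1.05), TFB2M (0.94), PPRC1 (0.88), TFAM (0.78), LONP1 (0.77), POLRMT (0.68), TOP3A (0.61) and POLG2 (0.60), and the lower one was GABPA (-0.60). The mitochondrial messengers had negative differences in that comparison, as given above.

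Of 38 tested genes that cut, modify, stabilise or degrade mitochondrial RNA, 13 rose and 4 fell under erastin in sh-LUC (median 0.12) and 0 rose and 10 fell in sh-IGFBP6 (-0.08). LRPPRC, which stabilises mitochondrial messengers, rose by 0.43 in sh-LUC (adjusted p = 3.35e-10) and was at -0.08 in sh-IGFBP6 (adjusted p = 0.315). SUPV3L1 and PNPT1, the helicase and nuclease that degrade mitochondrial RNA, rose by 0.54 (adjusted p = 3.61e-06) and 0.41 (adjusted p = 1.74e-05) in sh-LUC. TRMU, which thiolates transfer RNAs, fell in both lines, by 0.47 (adjusted p = 1.10e-05) and 0.49 (adjusted p = 2.19e-05). DHA raised 4 and lowered 0 in sh-LUC, and raised 5 and lowered 5 in sh-IGFBP6. In untreated sh-IGFBP6 cells 25 of the 38 were higher and 3 lower (median 0.47), with SLIRP, the partner of LRPPRC, at 1.75 (adjusted p = 1.34e-31).

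Of 13 mitochondrial translation factors, 3 rose and 2 fell under erastin in sh-LUC, shares near or below those of all genes, and 1 rose in sh-IGFBP6. DHA lowered 1 in each line, and 8 were higher and 1 lower in untreated sh-IGFBP6 cells. Of 16 tested genes of mitochondrial stress and mitophagy, 7 rose and 3 fell under erastin in sh-LUC, led by the matrix chaperones HSPD1 (1.22, adjusted p = 3.31e-40) and HSPA9 (0.97, adjusted p = 2.49e-33). In sh-IGFBP6 3 rose and 2 fell, with HSPD1 at 0.15 (adjusted p = 0.0399) and the mitophagy receptor BNIP3L at 0.72 (adjusted p = 3.15e-07). DHA raised 3 and lowered 2 in sh-LUC and raised 5 and lowered 1 in sh-IGFBP6. BNIP3, a further mitophagy receptor, rose under DHA in both, by 0.67 (adjusted p = 4.13e-10) and 0.56 (adjusted p = 9.84e-09). In untreated sh-IGFBP6 cells 9 of the 16 were higher and 3 lower.

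Nuclear copies of mitochondrial sequence can take reads from members. Of 15 such genes, 3 passed the filter, all on chromosome 1: MTCO1P12 (98.7% identical to MT-CO1), MTND2P28 (98.4% to MT-ND2) and MTATP6P1 (98.5% to MT-ATP6). Their counts were 2.93% to 3.92%, 3.06% to 8.45% and 2.81% to 18.8% of those of the member. MTCO1P12 moved with MT-CO1 under erastin in sh-LUC, by 1.83 (adjusted p = 1.72e-05), and MTND2P28 with MT-ND2, by 1.73 (adjusted p = 0.00144). How reads that fit both places were counted is not given in the sources used here, and RNA of these copies and of the members cannot be told apart. The 18.8% belonged to sh-IGFBP6 erastin replicate 3. In the other 17 libraries MTATP6P1 had at most 6.03%.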

How the data were processed

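RNA of 18 MDA-MB-231 samples (6 groups of 3) was sequenced after ribosomal RNA depletion, per the labels' protocols. The submitters' processing notes list cutadapt 4.4, STAR 2.7.7a, featureCounts and the GRCh38 build. The deposited values are raw counts per gene, per the labels. Annotation, strand setting and treatment of reads with several matches: not given in the sources used here. The table held 60709 genes; 1 further gene had blank counts and 2 lines named no gene (at most 0.0108% of a library), and these stayed out.

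Library sizes and TMM factors came from nuclear genes. The filterByExpr function (minimum count 10, minimum total 15) kept 15320 genes. The quasi-likelihood F test of edgeR 4.0.16 (R 4.3.3) used all 18 libraries with 1 coefficient per group and 12 residual degrees of freedom, in 9 comparisons. Calls are at a Benjamini-Hochberg adjusted p below 0.05 over all genes tested. The fit was tested on simulated data whose spread followed the trend over all genes. That run does not cover the wider spread of the members with 18 libraries. DESeq2 1.42.0 and other settings were alternatives. The SE of a log2 change was taken from F (for F below 1, from the fitted quasi-likelihood variance).

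Lengths and positions are those of GENCODE 29. The members and the gene lists were chosen with earlier results of these data known. Genes named are all tested members, IGFBP6, from each list at most 4 genes (smallest p in a comparison), and genes of the mitochondrial DNA transcription and maintenance list called at 1.5-fold or more. No set test was made.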

Additional observations from a re-analysis of the deposited data

Results flagged for a closer look

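In 2 of 16 members the erastin response was higher in sh-IGFBP6 by the interaction term with all 18 libraries, where 14.0% of genes were. The log2 difference was 8.50 for MT-RNR1 and 8.59 for MT-RNR2. With the 17 libraries left without sh-IGFBP6 erastin replicate 3, 1 of 16 was called, where 12.1% of genes were lower. That member was MT-CO1 at -1.22, and the ribosomal RNAs no longer passed.

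The DHA response differed by the same term in 0 of 16 members with 18 libraries, where 20.4% of genes passed in either direction. With 17 libraries it differed in 14 of 16, where 9.46% of genes were higher in sh-IGFBP6. The log2 difference was 3.88 for MT-RNR1 and 3.87 for MT-RNR2. For complex I messengers it was 1.59 for MT-ND1, 1.57 for MT-ND2, 1.74 for MT-ND3, 1.73 for MT-ND4L, 1.53 for MT-ND4, 1.47 for MT-ND5 and 1.66 for MT-ND6. It was 1.16 for MT-CYB, 0.86 for MT-CO1, 1.32 for MT-CO2, 1.01 for MT-CO3 and 1.63 for MT-ATP8. All were higher in sh-IGFBP6.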

How the results depend on the processing

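DESeq2 size factors and TMM over all genes changed no call among the 144 member changes tested under each. TMM over all genes moved the summed messenger level of untreated sh-LUC to 27682 and the summed transfer RNA level of sh-IGFBP6 under DHA to 21.8. Without the filter on low counts, members called were 7 for erastin in sh-LUC, 1 between untreated lines, 0 for the line difference under erastin (2 before) and 3 for DHA against erastin in sh-IGFBP6 (13 before). Fitting only the groups compared gave 9 for DHA in sh-LUC, 0 for erastin in sh-IGFBP6, 3 for DHA in sh-IGFBP6, 8 between untreated lines, 0 for the line difference under erastin, 15 under DHA and 0 for DHA against erastin in sh-IGFBP6. DESeq2's Wald test gave 0 for the line difference under erastin. For the same comparison edgeR gave 2 at an adjusted p below 0.05, and also 2 at an unadjusted p below 0.05. The cause of these changes was not tested. Except where given above, the counts of this section stand without the share of all genes called under the same setting. They do not tell a loss of calls among members from one over all genes. The same holds for the counts above with a library other than sh-IGFBP6 erastin replicate 3 left out.

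The main model did not pair the samples by replicate number. Over 7999 genes, same-numbered libraries correlated at -0.165 to 0.242, with 5 of 45 pairs above 0.1. Of the 18 libraries, 11 correlated best with their own number. These values do not settle whether the numbers pair the samples. A replicate block gave 8 for erastin in sh-LUC, 0 for the line difference under erastin and 4 for DHA against erastin in sh-IGFBP6. With 17 libraries, in fits chosen after seeing the data, the replicate block gave 7 for DHA in sh-LUC, 2 for DHA in sh-IGFBP6, 3 between untreated lines, 1 for the line difference under erastin (a lower MT-CO1), 15 under DHA and 4 for DHA against erastin in sh-IGFBP6. Nuclear library size without TMM gave 7, 2, 3, 1, 13 and 5 in the same order. In DHA against erastin in sh-IGFBP6 these 2 fits put MT-RNR1 at 0.85 (block) and 0.85, and MT-RNR2 at 0.62 (block) and 0.61.

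Leaving out each library in turn gave 2 to 14 members for erastin in sh-LUC, 0 to 8 for DHA in sh-LUC, 15 to 16 for erastin in sh-IGFBP6, 0 to 2 for DHA in sh-IGFBP6, 0 to 3 between untreated lines, 0 to 2 for the line difference under erastin, 0 to 14 under DHA, 14 to 16 for DHA against erastin in sh-LUC and 1 to 16 in sh-IGFBP6. In the last, MT-RNR1 ran from -7.33 to 0.85 and MT-RNR2 from -7.39 to 0.62, the positive values being those without sh-IGFBP6 erastin replicate 3.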
